A study of Mus musculus with 18 samples.

Results

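The genes and splicing events described here are those that differed between fibroblasts that carried an empty vector through reprogramming and fibroblasts that had not started it. All belonged to the overexpression dataset, and 4 of the 18 libraries of the series entered the comparison: 2 of non-infected mouse embryonic fibroblasts (MEFs) at day 0 (NI) and 2 of cells at day 12 (Empty). Every cell other than the feeders named below was a primary MEF of the genotype Collagen-OKSM, M2rtta+. In this genotype doxycycline switches on *Pou5f1* (OCT4), *Klf4*, *Sox2*, and *Myc* (OSKM) from a single cassette. The NI cells received neither virus nor doxycycline. The Empty cells received doxycycline and leukaemia inhibitory factor together with 2 rounds of a retrovirus that encodes GFP and no further protein, were sorted for GFP at day 2, were grown on irradiated feeder fibroblasts, and were collected by trypsin at day 12. Days of OSKM, infection, sorting, medium, and feeders changed together, so that their shares in any difference cannot be told apart, and RNA of the feeders cannot be told apart from that of the reprogrammed cells. One field of the labels places the NI cells at day 12 of doxycycline, whereas their titles place them at day 0, the day used here.

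Reprogramming by OSKM turns a fibroblast into a cell that resembles an embryonic stem cell. Fibroblasts hold an actin and myosin contractile apparatus, secrete collagens, and respond to TGF-β, and early in reprogramming they pass through a mesenchymal-to-epithelial transition, in which *Cdh1* (E-cadherin) is switched on. The genes of the pluripotency network, such as *Nanog* and *Esrrb*, follow later, and alternative splicing (AS) of many transcripts shifts along with the change of cell state. AS is given here as PSI, the percentage of transcripts that include a cassette exon, retain an intron, or use a given splice site, and ∆PSI is the mean PSI in Empty cells minus that in NI cells.

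Expression was read in 2 ways. The deposited table gives CPM multiplied by a factor for each library (scaled CPM) for 9472 genes, all above 5 scaled CPM in every library, so that genes silent at day 0 are not in it. To reach those genes as well, reads across exon-exon junctions were taken from the splicing table and summed for every gene, which gave 13458 genes with a mean of at least 20 reads, 4463 of them outside the expression table. This second readout, called junction level (read counts scaled between libraries), was added after the data had been seen. The 4 libraries held between 61119780 and 65214489 junction reads, and a count of 3 junction reads stood for a level of 0.0453 to 0.0491. The NI libraries differed more from each other than the Empty libraries did: 5.44% of the listed genes differed by more than 2-fold between the NI libraries and 0.137% between the Empty libraries. Replicates are numbered libraries with no stated source, so that p-values measure the spread between libraries. That spread was estimated from the 4 libraries together with the T7-TIA1 libraries of the same dataset, from cells that overexpress *Tia1*. Levels are not per length, and are compared within a gene only.

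Very many of the listed genes differed between day 0 and day 12, nearly as many in one direction as in the other. By *limma*, 2164 of 9472 genes were higher in Empty cells (22.8% of those tested) and 2237 were lower (23.6%), with a median log2 fold change of 0.01 over all genes. This even split depended on how the libraries were scaled. With each library set to the same sum, 66.9% of the called genes were higher, against 49.2% with the deposited scaling, and the median moved to 0.19. With libraries scaled by median ratios the split stayed even, at 2099 higher and 2268 lower (48.1% higher, median 0.0025). By junction reads 4360 of 13458 genes were higher (32.4%) and 2547 were lower (18.9%), with a median of 0.19. The excess of higher genes there came with the genes outside the table, of which 2311 of 4463 were higher and 449 lower. Many of these are silent at day 0 and pass the minimum of reads only through their day 12 libraries, so that they had to be higher, and neither this excess nor the counts of such genes in the lists below are evidence of a direction. Of the 8947 genes listed under the same symbol in both readouts, 3869 were called in both, 3866 of them in the same direction. Numbers of calls depended on single libraries. Without Empty replicate 1 there were 1473 called genes in the table, and 2222 without Empty replicate 2.

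Steep falls were those of genes of contractile fibroblasts and of the matrix around them. *Lox* (ENSMUSG00000024529), the enzyme that crosslinks collagen and elastin, stood at 2965 and 4605 in NI and 179.5 and 241 in Empty cells (log2 fold change −4.14, SE 0.25, adjusted p = 0.00085). *Acta2*, smooth muscle actin and the usual mark of a myofibroblast, stood at 6829.7 and 4060.3 in NI and 282 and 332 in Empty cells (log2 fold change −4.10, SE 0.26, adjusted p = 0.000974). Both genes were low in both Empty libraries and high in both NI libraries, with no overlap.

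Further genes among the 12 largest falls in the table were *Adam12*, *Has2*, *Inhba*, *Tagln*, *Smoc2*, *Tll1*, and *Col7a1*. *Adam12*, a metalloprotease, went from 239 and 251 to 11.97 and 18.5 scaled CPM (log2 fold change −3.95, adjusted p = 0.00138). Both NI libraries were well above both Empty libraries for it, as for the next 3. *Has2*, the synthase of hyaluronan, went from 147 and 109.5 to 5.54 and 10.7. *Inhba*, which encodes the activin subunit βA, went from 396 and 119 to 12.5 and 16.04. *Tagln*, an actin-binding protein of smooth muscle, went from 3602 and 1795 to 174 and 204. The adjusted p of these 7 genes lay between 0.00122 and 0.00475. None of the 7, nor *Lox* or *Acta2*, lost its call when a single library was left out.

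**Figure D1:**
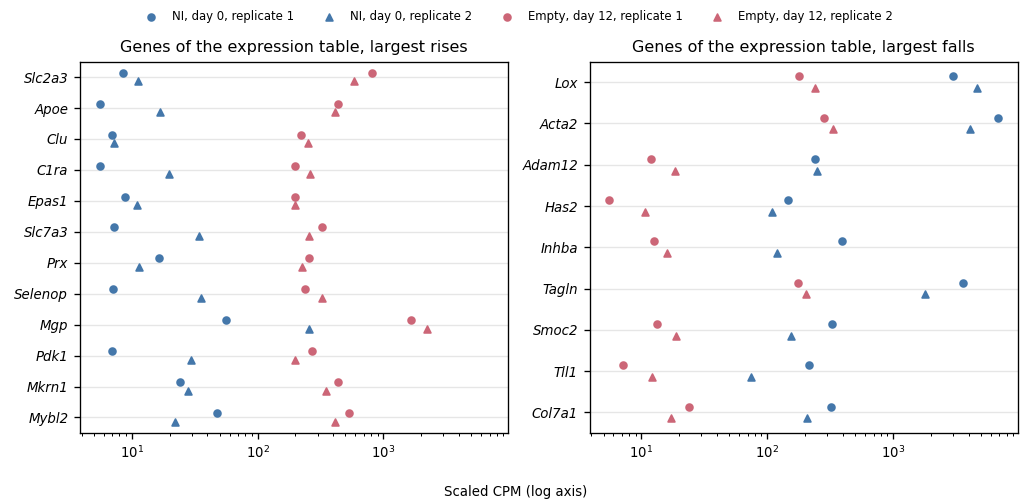
Scaled CPM (log axis) of the 12 genes of the expression table with the largest rises and of 9 of the 12 with the largest falls, 1 point per library, 2 NI libraries at day 0 and 2 Empty libraries at day 12. The libraries of the groups do not overlap for any of these genes, which the choice of the genes required, and the NI libraries of *Lox* lie at 2965 and 4605 against 179.5 and 241 in Empty cells.

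Genes of the contractile apparatus were lower almost throughout. Of its 25 members, 23 were in the table, and 22 of these were lower (95.7%, against 23.6% of all genes) and none higher, with a median log2 fold change of −2.12 against 0.01 over all genes. *Myl9*, the regulatory light chain of smooth muscle and non-muscle myosin, went from 789.8 and 525 to 51.8 and 57.1 scaled CPM (log2 fold change −3.54, adjusted p = 0.000804). *Tpm1*, a tropomyosin, went from 3557 and 2087 to 394 and 392 (log2 fold change −2.79, adjusted p = 0.00154). *Myh10*, a non-muscle myosin heavy chain, went from 441 and 538 to 115 and 125 (log2 fold change −2.01, adjusted p = 0.000982). In each of these the Empty libraries were nearly equal, and the NI libraries were the ones further apart. Outside the table, *Cnn1* (calponin, which binds actin in smooth muscle) had a junction level of 304 and 268 in NI and 3.97 and 4.89 in Empty cells (log2 fold change −5.99, adjusted p = 0.000164). *Des* (desmin, an intermediate filament of muscle) had one of 33.9 and 24.8 in NI and 6.81 and 5.52 in Empty cells. *Flna*, the filamin that links actin to the membrane, was also lower, from 5129.8 and 3927 to 932 and 1068 scaled CPM (log2 fold change −2.17, adjusted p = 0.00127).

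Most collagens fell, but not all of them. Of the 18 collagen genes in the table, 13 were lower (72.2%, against 23.6% of all genes) and 2 higher (11.1%, against 22.8%), with a median of −1.59. *Col1a1*, the main chain of type I collagen, stood at 5339.6 and 15607 in NI and 955 and 1064 in Empty cells scaled CPM (log2 fold change −3.18, SE 0.48, adjusted p = 0.00496). *Col5a2*, a chain of the type V collagen that starts fibrils, went from 3160.1 and 4273 to 391 and 513 (log2 fold change −3.03, adjusted p = 0.00107). *Col7a1*, the anchoring fibril collagen, went from 320.1 and 208 to 23.8 and 17.3 (log2 fold change −3.60, adjusted p = 0.00127). These falls were larger than the spread between the libraries of either group. The higher genes were *Col18a1*, a collagen of basement membranes and the source of endostatin, at 73.7 and 105 in NI and 393 and 294 in Empty cells (log2 fold change 1.93, adjusted p = 0.00231), and *Col15a1*, its closest relative. *Col3a1* gave no call, at 843 and 4620.4 in NI and 1112 and 1462 in Empty cells (log2 fold change −0.63, adjusted p = 0.538), and its NI libraries lay on either side of both Empty libraries. The NI libraries also differed widely for *Col1a1* and *Col1a2*, and their calls were lost without Empty replicate 1 (adjusted p = 0.0506 and 0.152). That on *Col1a2* was also lost without Empty replicate 2.

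Among 37 other matrix proteins and crosslinking enzymes, 22 of the 34 in the table were lower (64.7%, against 23.6% of all genes) and none higher (median −1.39). *Tnc* (tenascin C) went from 2204 and 1870.4 to 167 and 193 scaled CPM (log2 fold change −3.49, adjusted p = 0.000894). *Fbln2* (fibulin 2) went from 2525 and 3796 to 348 and 409 (log2 fold change −3.03, adjusted p = 0.00138). *Plod3*, a lysyl hydroxylase of collagen, went from 276 and 332 to 84.05 and 94.6 (log2 fold change −1.75, adjusted p = 0.00109). The groups lay far apart for these 3 genes beside the spread within a group, which was less so for the next ones. *Postn* (periostin) went from 759 and 2928 to 114 and 157 (log2 fold change −3.47, adjusted p = 0.00863), a call that was lost without Empty replicate 1 (adjusted p = 0.0718). *Fn1* (fibronectin), which links matrix to integrins, gave no call at 4996 and 12121 in NI and 5068 and 6656 in Empty cells (log2 fold change −0.42, adjusted p = 0.455). The same held for *Eln* (elastin) and *Lum* (lumican) by junction level, whose NI libraries differed by far more than the Empty libraries: *Eln* stood at 2.59 and 74.96 in NI and 34.2 and 33.5 in Empty cells and *Lum* at 0.571 and 14.2 in NI and 23.3 and 36.3 in Empty cells.

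Transcription factors and surface proteins of mesenchymal cells were lower as well, to very different degrees. Of 32 listed, 16 of the 24 in the table were lower (66.7%, against 23.6% of all genes) and 1 was higher (median −1.19). *Cdh2* (N-cadherin) stood at 288 and 175 in NI and 22.1 and 31.6 in Empty cells scaled CPM (log2 fold change −3.04, SE 0.35, adjusted p = 0.0025). *Snai1*, a repressor of E-cadherin, went from 93.4 and 67.4 to 11.1 and 13.4 (log2 fold change −2.61, adjusted p = 0.00126). *Zeb2*, another such repressor, went from 121 and 108 to 22.9 and 33.98 (log2 fold change −1.997, adjusted p = 0.00165). The factors that repress the epithelial state were not equal in their change. The related *Zeb1* went from 91.1 and 98.6 to 67.6 and 72.8 (log2 fold change −0.43, adjusted p = 0.0206). *Vim* (vimentin) went from 5548 and 3690.2 to 1976 and 1967 (log2 fold change −1.20, adjusted p = 0.00968). *Thy1*, the surface marker commonly used to follow the loss of fibroblast identity, went from 440.3 and 741 to 293 and 308 (log2 fold change −0.92, adjusted p = 0.0276). Outside the table, *Twist2*, a factor of embryonic mesenchyme, had a junction level of 6.49 and 6.43 in NI and 0.597 and 1.22 in Empty cells. *Osr1*, a factor of intermediate mesoderm, had one of 11.9 and 16.2 in NI and 1.15 and 1.37 in Empty cells. Both were low in Empty cells. The calls on *Vim*, *Thy1*, and *Zeb1* were lost when either Empty library was left out, with adjusted p of up to 0.079, 0.143, and 0.138, and those on *Thy1* and *Zeb1* also with libraries set to equal sums.

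In the TGF-β pathway, genes of the TGF-β ligands and of the proteins that store them fell. Of 30 members, all in the table, 13 were lower (43.3%, against 23.6% of all genes) and 3 higher (10%, against 22.8%), with a median of −0.43. The 3 TGF-β ligand genes *Tgfb1*, *Tgfb2*, and *Tgfb3* were lower. *Tgfb1* went from 39.8 and 33.7 to 11.4 and 12.5 scaled CPM (log2 fold change −1.54, adjusted p = 0.00127). *Tgfb2* went from 45.1 and 45.1 to 13.4 and 14.6 (log2 fold change −1.62, adjusted p = 0.00142). The genes *Ltbp1* and *Ltbp2* encode proteins that hold latent ligand in the matrix. *Ltbp1* went from 468 and 368 to 104 and 122 (log2 fold change −1.87, adjusted p = 0.00126). *Ltbp2* went from 1164 and 914 to 226 and 282 (log2 fold change −2.03, adjusted p = 0.0016). Of the receptors, *Tgfbr1* and *Acvr1* were lower and *Acvr1b* was higher, and *Tgfbr2* gave no call at 90.5 and 195 in NI and 174 and 204 in Empty cells (log2 fold change 0.50, adjusted p = 0.275). The ligand *Bmp4*, of the related BMP branch, was among the higher genes. The inhibitors *Smad7*, *Ski*, and *Skil* were not called. Of 18 genes of the YAP/TEAD pathway, which responds to tension of the cytoskeleton, 11 were lower (61.1%, against 23.6% of all genes) and none higher (median −0.77). The coactivators themselves gave no call. *Yap1* stood at 259.6 and 222 in NI and 205 and 212 in Empty cells (log2 fold change −0.21, adjusted p = 0.186). *Wwtr1* (TAZ) stood at 158 and 153 in NI and 152 and 152 in Empty cells (log2 fold change −0.03, adjusted p = 0.804). Some of their partners were called lower. *Vgll3*, a cofactor of TEAD, went from 303 and 195 to 67.2 and 84.8 (log2 fold change −1.67, adjusted p = 0.00391). The DNA-binding *Tead3* went from 65.2 and 62.8 to 32.96 and 33.2 (log2 fold change −0.93, adjusted p = 0.00213). The lower genes were not only coactivator partners: the kinase *Lats1*, also in the list, went from 111 and 107 to 63.1 and 69.6 (log2 fold change −0.71, adjusted p = 0.00441).

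The steepest rise in the table was that of *Slc2a3* (ENSMUSG00000003153), the glucose transporter GLUT3, which stood at 8.49 and 11.3 in NI and 819 and 580.02 in Empty cells scaled CPM (log2 fold change 5.997, SE 0.22, adjusted p = 0.000677). Both NI libraries were close to the minimum of the table and both Empty libraries were many times higher. *Apoe*, a carrier of lipids, stood at 5.65 and 16.7 in NI and 433 and 412 in Empty cells (log2 fold change 5.28, SE 0.43, adjusted p = 0.00126). *Clu* (clusterin, a secreted chaperone) stood at 6.99 and 7.18 in NI and 221 and 251 in Empty cells (log2 fold change 4.87, SE 0.19, adjusted p = 0.000677). These genes too had NI libraries near the minimum of the table. *Epas1*, which encodes the hypoxia-inducible factor HIF-2α, went from 8.89 and 10.97 to 199 and 199 (log2 fold change 4.2003, adjusted p = 0.000677). *Mkrn1*, a ubiquitin ligase, went from 24.01 and 28.2 to 438 and 352. *Mybl2*, a cell cycle factor that is abundant in stem cells, went from 47.9 and 22.04 to 536 and 412. The remaining members of the 12 largest rises were *C1ra*, a protease of the complement system, *Slc7a3*, a transporter of cationic amino acids, *Prx* (periaxin), *Selenop*, a plasma carrier of selenium, *Mgp*, an inhibitor of calcification, and *Pdk1*, a kinase that restrains pyruvate dehydrogenase. The NI libraries differed by several fold for *Slc7a3*, *Selenop*, *Mgp*, and *Pdk1*, and for each of these the call was lost without Empty replicate 1, for *Selenop* and *Mgp* also without Empty replicate 2, with adjusted p of up to 0.0536, 0.0595, 0.0528, and 0.0534.

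Genes of the pluripotency network were near zero at day 0 and abundant at day 12. *Dppa5a*, a marker of naive pluripotent cells, had a junction level of 0.179 and 0.18 in NI and 1141 and 849 in Empty cells (log2 fold change 11.78, SE 0.16, adjusted p = 4.61e-06). *Nanog*, a core pluripotency factor, stood at 0.261 and 0.311 in NI and 70.8 and 60.04 in Empty cells (log2 fold change 7.41, SE 0.17, adjusted p = 1.49e-05). *Esrrb*, a nuclear receptor of the same network, stood at 0.0163 and 0.0164 in NI and 81.7 and 64.7 in Empty cells, with 1 read in each NI library, too few for a fold change. The NI values of these 3 genes rested on at most 19 reads per library, so that the value added before the log sets much of the fold change: with 1 in place of 0.1 added, the log2 fold change was 9.71 for *Dppa5a* and 5.69 for *Nanog*. *Sall4* had no junction read in NI cells and a level of 25.5 and 24.1 in Empty cells, and *L1td1* none in NI cells and 31.8 and 30.98. Taking 3 reads per library as the floor in NI cells, *Sall4* was at least 506-fold and *L1td1* at least 640.1-fold higher. *Tdgf1* (Cripto, a coreceptor of Nodal) went from 0.0326 and 0.0164 to 327 and 231. *Tdh* (threonine dehydrogenase, an enzyme on which mouse embryonic stem cells depend) went from 0.0326 and 0.0164 to 316 and 294. Both Empty libraries were high for each of these genes. *Dnmt3b*, a de novo DNA methyltransferase, went from 3.67 and 5.14 to 519 and 514 (log2 fold change 6.86, adjusted p = 1.57e-05). Of the 53 listed factors and pluripotency genes, 49 of the 51 measured were higher by junction reads (32.4% of all genes were). Of these 49, 39 lie outside the table, where reads at day 12 alone can pass the minimum. *Tet3* and *Tcf3* were not called, and *Sox2* and *Fut4* gave no junction value. The missing values do not show that these genes were silent, since a gene without an annotated intron has no junctions to read.

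Of the induced factors, *Pou5f1* had a junction level of 1.04 and 1.06 in NI and 583 and 534 in Empty cells (log2 fold change 8.92, SE 0.11, adjusted p = 3.92e-06). *Klf4* and *Myc*, which fibroblasts express, changed less. *Klf4* stood at 90.6 and 106 in NI and 194 and 197 in Empty cells (log2 fold change 0.99, adjusted p = 0.00239). *Myc* stood at 143 and 91.7 in NI and 200.3 and 194 in Empty cells scaled CPM (log2 fold change 0.78, adjusted p = 0.0321). The call on *Myc* was lost without either Empty library, with an adjusted p of up to 0.152. The induced cassette carries the coding sequences of these genes, and its reads cannot be told apart from those of the endogenous genes in either readout. *Nanog*, *Esrrb*, *Sall4*, and *Dppa5a* are not part of the cassette. Among the genes in the table, *Jarid2* and *Mtf2*, both partners of the Polycomb complex PRC2 that are abundant in stem cells, were higher. *Jarid2* went from 15.6 and 20.98 to 234 and 209 (log2 fold change 3.54, adjusted p = 0.000677). *Mtf2* went from 37.2 and 31.8 to 206 and 174 (log2 fold change 2.43, adjusted p = 0.000804).

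Epithelial genes appeared along with them. *Cdh1* had a junction level of 0.473 and 0.0981 in NI and 337 and 269 in Empty cells (log2 fold change 9.80, SE 0.48, adjusted p = 8.37e-05). *Epcam*, an adhesion molecule of epithelia and stem cells, had one of 0.294 and 0.164 in NI and 216 and 177 in Empty cells (log2 fold change 9.25, SE 0.22, adjusted p = 1.49e-05). With 1 in place of 0.1 added before the log, these log2 fold changes were 7.89 for *Cdh1*, which had 29 and 6 reads in NI cells, and 7.32 for *Epcam*. *Esrp1*, which encodes a splicing factor restricted to epithelia, had no junction read in either NI library and 57.2 and 43.7 in Empty cells, which makes it at least 1029-fold higher. The keratins *Krt8* and *Krt18* of simple epithelia were higher too. *Krt8* stood at 2.74 and 0.442 in NI and 93.04 and 60.1 in Empty cells (log2 fold change 5.92, adjusted p = 0.00259). *Krt18* stood at 6.39 and 2.83 in NI and 108 and 69.02 in Empty cells (log2 fold change 4.31, adjusted p = 0.00129). Of 43 epithelial genes, 34 of the 38 measured were higher by junction reads (32.4% of all genes were) and none lower. Of these 34, 31 lie outside the table, with the same limit, and among the 6 in the table, 3 were higher. *Krt7*, *Krt19*, *Pkp1*, and *Pkp2* were not called, and 5 had too few reads. In the table, *Lama5*, a laminin chain of basement membranes, went from 36.8 and 70.2 to 546 and 472 scaled CPM (log2 fold change 3.29, adjusted p = 0.0014). *Jup* (plakoglobin) went from 88.4 and 82.7 to 208 and 202 (log2 fold change 1.25, adjusted p = 0.00144).

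Outside the table, the 12 largest falls were led by *Tnmd* (tenomodulin, a marker of tendon cells), whose junction level was 137 and 239 in NI and 1.45 and 1.64 in Empty cells (log2 fold change −6.78, SE 0.35, adjusted p = 0.000101). *Thbs4*, a matrix protein of tendon and muscle, stood at 28.01 and 146 in NI and 0.678 and 1.48 in Empty cells. *Acta1* (skeletal muscle actin) stood at 57.2 and 38.5 in NI and 1.03 and 1.49 in Empty cells. *Myh11* (smooth muscle myosin) stood at 61.6 and 84.4 in NI and 2.26 and 3.4 in Empty cells. These are genes of tendon and of muscle. *Rgs4*, a regulator of G protein signals, stood at 45.4 and 41.9 in NI and 1.05 and 1.46 in Empty cells (log2 fold change −5.03, adjusted p = 6.72e-05). The others were *Cnn1*, *Aldh1l2*, *Siglecg*, *Rasgrp3*, *Cap2*, *Bmper*, and *Fgd3*. The calls on *Aldh1l2*, *Rasgrp3*, and *Fgd3*, whose NI libraries were several fold apart, were lost without Empty replicate 1 (adjusted p = 0.051, 0.0774, and 0.0521).

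Most genes of glycolysis rose, whereas most of those of respiration gave no call. Of the 25 glycolysis genes in the table, 17 were higher (68%, against 22.8% of all genes) and 1 was lower (*Pfkfb4*), with a median log2 fold change of 0.98. *Slc2a1* (GLUT1) went from 107 and 106 to 444 and 367 scaled CPM (log2 fold change 1.91, adjusted p = 0.000982). *Hk2* (hexokinase 2, the first step of the pathway) went from 79.8 and 54.5 to 272 and 250.2 (log2 fold change 1.97, adjusted p = 0.00159). *Slc16a1*, a lactate transporter, went from 58.3 and 61.1 to 193 and 203 (log2 fold change 1.72, adjusted p = 0.000804). For these 3 genes both Empty libraries were far above both NI libraries. *Ldha*, which makes lactate, went from 1053 and 904 to 1563 and 1417 (log2 fold change 0.61, adjusted p = 0.0175), a call lost without either Empty library (adjusted p of up to 0.131). *Pkm*, a pyruvate kinase, gave no call at 2464 and 1989 in NI and 3349 and 2897 in Empty cells (log2 fold change 0.49, adjusted p = 0.0696). Outside the table, *Aldoc*, an aldolase, had a junction level of 0.587 and 4.25 in NI and 108 and 76.6 in Empty cells. Of the 75 genes of the respiratory chain and ATP synthase in the table, 12 were higher (16%, below the 22.8% over all genes), 3 were lower (4%, below 23.6%), and 60 gave no call (median 0.10). *Ndufs1*, a core subunit of complex I, stood at 132 and 114 in NI and 117 and 118 in Empty cells (log2 fold change −0.06, adjusted p = 0.69), while the small subunits *Ndufa7* and *Ndufa6* were called higher, *Ndufa7* from 68.3 and 64.4 to 122 and 108 and *Ndufa6* from 35.5 and 35.4 to 60.7 and 59.3. The call on *Ndufa6* was lost without Empty replicate 1 (adjusted p = 0.0516). In ribosome biogenesis, 13 of the 52 genes in the table were higher (25%, near the 22.8% over all genes) and none lower (median 0.36), with *Rrp1b* going from 67.9 and 50.6 to 128 and 122 (log2 fold change 1.08, adjusted p = 0.0044). *Ncl* (nucleolin), *Fbl* (fibrillarin), and *Nop56* gave no call, with NI libraries that differed widely, as for *Ncl* at 1817 and 1019 in NI and 1984 and 1958 in Empty cells.

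Of the 56 genes of DNA replication in the table, 24 were higher (42.9%, against 22.8% of all genes) and 4 lower (median 0.41). Of 58 genes of mitosis, 13 were higher (22.4%), as over all genes, and 8 lower (13.8%, against 23.6%), with a median of 0.06. *Mcm2*, a subunit of the replicative helicase, went from 152 and 96.8 to 258 and 243 scaled CPM (log2 fold change 1.04, adjusted p = 0.0124). *Timeless*, a protein of the replication fork, went from 34.02 and 30.5 to 79.4 and 74.1 (log2 fold change 1.23, adjusted p = 0.00138). Not every gene of the list followed. *Ccne2* (cyclin E2) was lower, from 63.7 and 31.2 to 10.2 and 11.1 (log2 fold change −1.97, adjusted p = 0.00626), and *Pcna*, the sliding clamp, gave no call at 205 and 130.2 in NI and 214 and 205 in Empty cells (log2 fold change 0.36, adjusted p = 0.219). Genes of mitosis were as varied. *Pttg1* (securin) was higher, from 23.8 and 18.8 to 69.6 and 58.2 (log2 fold change 1.54, adjusted p = 0.00179). *Mki67*, the common mark of cycling cells, was lower, going from 329 and 263 to 201 and 174 (log2 fold change −0.65, adjusted p = 0.0162). *Plk1*, a mitotic kinase, gave no call at 96.9 and 67.5 in NI and 74.3 and 69.2 in Empty cells. The calls on *Mcm2* and *Mki67* were lost without either Empty library and that on *Ccne2* without Empty replicate 1, with adjusted p of up to 0.088, 0.101, and 0.0576.

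Of 38 brakes of the cell cycle and p53 targets, 13 of the 34 in the table were higher (38.2%, against 22.8% of all genes) and 3 lower (8.82%, against 23.6%), with a median of 0.59. *Rb1*, the retinoblastoma protein, stood at 25.4 and 25.7 in NI and 88.5 and 87.1 in Empty cells scaled CPM (log2 fold change 1.74, SE 0.097, adjusted p = 0.000804). *Pmaip1* (NOXA, a p53 target that promotes cell death) stood at 24.1 and 24.6 in NI and 99.5 and 105 in Empty cells (log2 fold change 2.02, SE 0.12, adjusted p = 0.000843). Libraries of a group were nearly equal for both genes. *Cdkn2a*, the locus of INK4A and ARF and a barrier to reprogramming, stood at 12.5 and 47.5 in NI and 153 and 177 in Empty cells (log2 fold change 2.69, adjusted p = 0.013), a call lost without either Empty library (adjusted p of up to 0.0776). *Ccnd1* (cyclin D1), which drives the cycle but is counted in this list, was higher, from 181 and 167 to 455 and 584 (log2 fold change 1.56, adjusted p = 0.00163). *Cdkn1a* (p21) and *Trp53* itself gave no call, at 392 and 364 in NI and 346 and 499 in Empty cells and at 207 and 161 in NI and 222 and 222 in Empty cells.

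Chromatin regulators were mostly higher: of the 48 in the table, 26 were higher (54.2%, against 22.8% of all genes) and 5 lower (median 0.53). *Kdm4c*, a demethylase of histone H3 lysine 9, stood at 35.1 and 38.9 in NI and 164 and 143 in Empty cells scaled CPM (log2 fold change 2.02, adjusted p = 0.000842). *Smarcd1*, a subunit of the BAF remodeller, went from 40.3 and 36.02 to 129 and 126 (log2 fold change 1.71, adjusted p = 0.000882). Its relative *Smarcd3*, known from heart and muscle, was lower, with a junction level of 22.8 and 28.4 in NI and 8.08 and 8.92 in Empty cells (log2 fold change −1.57, adjusted p = 0.00138). *Kdm2b* and *Kdm6a* encode demethylases tied to Polycomb silencing. *Kdm2b* went from 29.2 and 28.9 to 82.4 and 73.7 scaled CPM (log2 fold change 1.39, adjusted p = 0.00114). *Kdm6a* went from 29.8 and 32.3 to 77.4 and 74.6 (log2 fold change 1.27, adjusted p = 0.00122). *Ezh2*, the PRC2 enzyme, gave no call at 89.4 and 53.1 in NI and 120.4 and 100.2 in Empty cells. *Cbx7*, a Polycomb protein of stem cells, had a junction level of 0.179 and 0.36 in NI and 33.5 and 26.3 in Empty cells. The *Hox* genes, which record the position of a fibroblast in the embryo, were mostly low at both times. Of 38, 24 were measured by junction reads, and 13 of these were lower (18.9% of all genes by that readout were) and 1 (*Hoxd12*) was higher. Of the 13, 12 lie outside the table, where a low gene can pass the minimum of reads mainly through the group in which it is high, so that the count is no evidence of a direction. Among the 6 in the table, 3 were lower and none higher. *Hoxc10* stood at a junction level of 4.89 and 5.2 in NI and 1.16 and 0.981 in Empty cells (log2 fold change −2.14, adjusted p = 0.000946). *Hoxb9* stood at 2.89 and 4.6 in NI and 0.50 and 0.257 in Empty cells. In the table, *Hoxc6* went from 22.1 and 26.1 to 8.83 and 11.4 scaled CPM (log2 fold change −1.18, adjusted p = 0.00384).

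Of 26 imprinted genes, 22 were measured by junction reads. Of these, 6 were higher (27.3%) and 4 lower (18.2%), near the shares over all genes by that readout (32.4% and 18.9%). *Dlk1*, a Notch ligand homologue of fetal tissues, had a junction level of 102 and 109 in NI and 14.8 and 18.6 in Empty cells (log2 fold change −2.66, adjusted p = 0.0031). *Snrpn*, from the Prader-Willi region, moved the other way, with a level of 20.7 and 25.2 in NI and 150.5 and 148 in Empty cells (log2 fold change 2.705, adjusted p = 7.45e-05). *Grb10*, a brake on growth factor signals, went from 826 and 1163 to 409 and 404 scaled CPM (log2 fold change −1.27, adjusted p = 0.00488). *Ndn* (necdin) went from 95.1 and 90.7 to 24.1 and 30.8 (log2 fold change −1.73, adjusted p = 0.00124). *H19* gave no call at 243 and 1979 in NI and 2648 and 2694 in Empty cells (log2 fold change 1.94, adjusted p = 0.131), its NI libraries being the ones far apart. Of the 23 cholesterol synthesis genes in the table, 6 were lower (26.1%, near the 23.6% over all genes) and none higher. *Hsd17b7*, an enzyme of the later steps, went from 66.8 and 121 to 30.7 and 31.1 (log2 fold change −1.51, adjusted p = 0.0089), a call lost without either Empty library (adjusted p of up to 0.069). *Sqle* (squalene epoxidase) gave no call at 114 and 262 in NI and 118 and 113 in Empty cells. Of 55 genes of the interferon response and antigen presentation, 6 were higher (25%) and 2 lower (8.33%) among the 24 in the table. By junction reads, 15 of the 50 measured were higher (30%) and 3 lower (6%). The shares of higher genes were near those over all genes (22.8% and 32.4%), and those of lower genes were below them (23.6% and 18.9%). *Ifitm1*, an interferon-induced membrane protein that is also found in early germ cells, had a junction level of 0.277 and 2.04 in NI and 96.9 and 87.1 in Empty cells.

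**Figure D2:**
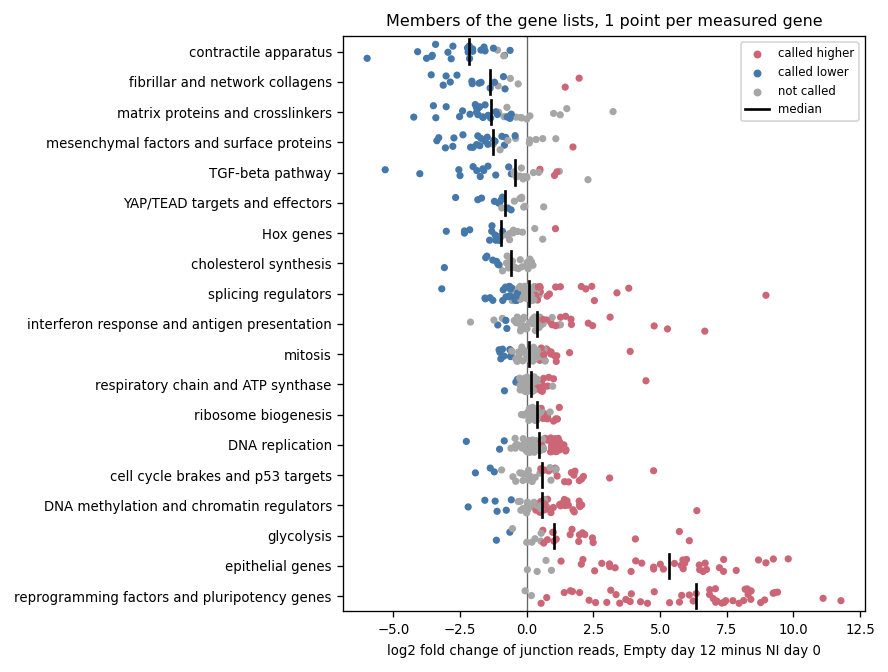
Log2 fold change by junction reads, Empty minus NI, of every measured member of 19 gene lists, 1 point per gene, marked as called higher, called lower, or not called, with a bar at the list's median. Members of the contractile list have a median of −2.16, those of the epithelial list 5.33, and those of mitosis 0.0856, against 0.19 over all genes. Genes silent at day 0 enter only through their day 12 reads.

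Markers of other cell types were followed by junction reads, and their part in the results above was not tested. By junction reads 32.4% of all genes were higher and 18.9% lower, and most of the markers measured lie outside the table, where reads at day 12 alone can pass the minimum, so that the counts are no evidence of a direction. Of 14 macrophage markers measured, 12 were higher (85.7%), and their summed level was 5.73 and 3.71 in NI and 174 and 215 in Empty cells. Most of this sum was 1 gene, *Laptm5*, at 0.179 and 0.0491 in NI and 136 and 129.6 in Empty cells. The defining *Ptprc* (CD45) gave no call, at 0.261 and 0.131 in NI and 0.468 and 2.72 in Empty cells, while *Adgre1* (F4/80) stood at 0.114 and 0.0164 in NI and 3.5 and 12.2 in Empty cells and *Mrc1* at 0.489 and 0.72 in NI and 6.94 and 21.2 in Empty cells, both higher in Empty replicate 2. Of 10 endothelial markers measured, 7 were higher (70%; sum 18.9 and 19.3 in NI, 162 and 152 in Empty cells), led by *Tek* (TIE2) at 1.31 and 5.1 in NI and 57.8 and 70.6 in Empty cells and *Pecam1*, which embryonic stem cells also carry, at 0.0979 and 0.0654 in NI and 30.8 and 23.4 in Empty cells. *Kdr*, the VEGF receptor that defines endothelium, gave no call at 6.53 and 2.19 in NI and 5.07 and 3.56 in Empty cells. Of 8 adipocyte markers measured, 2 were higher (25%, below the share over all genes; sum 66.1 and 87.5, then 133 and 389), namely *Cd36* and *Cfd*. The call on *Cfd* (adjusted p = 0.0449) was lost without either Empty library, without NI replicate 2, and with a larger value added before the log (adjusted p of up to 0.204). *Fabp4* gave no call at 6.13 and 9.19 in NI and 29.9 and 132 in Empty cells, the Empty libraries being far apart. Of 9 skeletal muscle markers measured, 6 were lower and 2 higher (sum 90.3 and 59.8, then 52.5 and 47.4), and *Myod1*, *Myog*, *Myf5*, and *Pax7* had too few reads.

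Of 4 keratinocyte markers measured, 3 were higher (75%, against 32.4% of all genes by junction reads), and the defining *Krt5* had too few reads. The 4 summed to 0.913 and 1.03 in NI and 13.4 and 12.8 in Empty cells. Of 11 markers of trophoblast and endoderm measured, 6 were higher (54.5%, against 32.4% of all genes by junction reads). The 11 summed to 779 and 720.5 in NI and 608 and 702 in Empty cells, most of it *Lamb1*. *Cdx2*, *Sox17*, and *Foxa2* were under the minimum of reads. *Tfap2c*, also a factor of early reprogramming, had no read in NI cells and 22.2 and 13.4 in Empty cells. Of 9 neural and glial markers measured, 4 were higher and 3 lower (44.4% and 33.3%, against 32.4% and 18.9% of all genes by junction reads). The 9 summed to 46.04 and 61.02 in NI and 29.2 and 28.3 in Empty cells. In bulk RNA, fewer cells of a type and less RNA per cell cannot be told apart. Of the markers chosen for fibroblasts, *Thy1*, *Vim*, *Cdh2*, and *Zeb1* were well above the minimum of the table at day 0. At day 12 these 4 genes were still expressed beside *Nanog* and *Cdh1*. Another of these markers, *Twist2*, lies outside the table, with a junction level of 6.49 and 6.43 in NI and 0.597 and 1.22 in Empty cells.

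Of 99 regulators of splicing, 81 were in the table. Of these, 13 were higher (16%) and 16 lower (19.8%), both shares below those over all genes (22.8% and 23.6%), with a median of 0.07, and the genes named next are single calls. The muscleblind genes *Mbnl1* and *Mbnl2*, whose proteins repress the stem cell splicing pattern, were both lower. *Mbnl1* went from 284 and 266 to 140.3 and 156 scaled CPM (log2 fold change −0.89, adjusted p = 0.00313). *Mbnl2* went from 335 and 301 to 186 and 182 (log2 fold change −0.78, adjusted p = 0.00347). *Celf2* went from 74.2 and 65.4 to 28.5 and 30.4 (log2 fold change −1.22, adjusted p = 0.00243). *Khdrbs3* (SLM2) went from 44.2 and 31.2 to 12.1 and 12.4 (log2 fold change −1.52, adjusted p = 0.00252). These are regulators with roles in muscle, heart, or brain. *Rbmx*, an hnRNP encoded on the X chromosome, went from 72.7 and 64.01 to 29.04 and 24.4 (log2 fold change −1.33, adjusted p = 0.00223). *Msi2* (Musashi 2) was higher, going from 19.1 and 36.1 to 177 and 164 (log2 fold change 2.65, adjusted p = 0.00206). Outside the table, *Rbm47*, another factor of epithelia, had a junction level of 0.538 and 0.572 in NI and 7.28 and 6.22 in Empty cells (log2 fold change 3.38, adjusted p = 0.000149). *Rbfox1*, a regulator of neurons and muscle, had one of 2.85 and 2.14 in NI and 0.145 and 0.226 in Empty cells (log2 fold change −3.19, adjusted p = 0.000665, or −1.55 with 1 in place of 0.1 added), on 9 and 15 reads in Empty cells. *Nova2*, a regulator of neurons, stood at 0.0163 and 0.0327 in NI and 1.92 and 1.43 in Empty cells. *Rbfox2* gave no call in the table, at 238 and 318 in NI and 205 and 203 in Empty cells (log2 fold change −0.43, adjusted p = 0.0661), whereas by junction reads it was called lower (log2 fold change −0.665, adjusted p = 0.0144). Of the proteins that the study manipulates, *Cpsf3*, the endonuclease that cuts pre-mRNA at its 3′ end, went from 82.2 and 70.7 to 111 and 98.1 (log2 fold change 0.45, adjusted p = 0.0302), a call lost without either Empty library (adjusted p of up to 0.181). *Tia1* and *Hnrnpul1* gave no call. *Tia1* stood at 72.1 and 102.8 in NI and 85.6 and 77.04 in Empty cells (log2 fold change −0.08, adjusted p = 0.765). *Hnrnpul1* stood at 196 and 202 in NI and 185 and 178 in Empty cells (log2 fold change −0.13, adjusted p = 0.293).

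Splicing was compared over 384515 events with at least 10 reads in each of the 4 libraries, out of 661941 annotated. An event was differentially spliced where |∆PSI| was at least 10 and the libraries of the groups lay at least 5 apart, a rule without a test. By this rule 1326 events had a higher PSI in Empty cells (0.345%) and 1285 a lower PSI (0.334%), in 1672 genes. They were 982 cassette exons, 770 retained introns, 358 alternative 3′ splice sites, and 501 alternative 5′ splice sites, the sites counted singly, so that a pair of competing sites counts 2 times. A *limma* test on inclusion over exclusion reads, run on 118562 events, called 589 events higher (0.497%) and 660 lower (0.557%), whereas *limma* on the PSI values themselves called 7 events in all, with 11630 at an unadjusted p under 0.05. Both criteria were met by 572 events, 346 of them cassette exons. Numbers again depended on single libraries: the read test called 215 events without NI replicate 1, 249 without Empty replicate 1, 403 without NI replicate 2, and 1830 without Empty replicate 2, and the ∆PSI rule gave 5429 events without Empty replicate 2.

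The exons that carried the largest changes included very short ones, which add a few residues to a protein without a shift of frame. The following are shown because their lengths and sequences can be read whole, with the exon in capitals and 12 bases of each neighbouring exon in lower case, as spliced, 5′ to 3′ on the strand of the gene, from the GENCODE transcripts of GRCm38 (mm10).
Pcnt, 21 nt: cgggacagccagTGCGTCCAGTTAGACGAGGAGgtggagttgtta
Afdn, 21 nt: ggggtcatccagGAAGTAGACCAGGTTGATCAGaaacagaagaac
Baz2b, 27 nt: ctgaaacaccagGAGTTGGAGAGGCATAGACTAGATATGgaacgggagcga
Mark3, 27 nt: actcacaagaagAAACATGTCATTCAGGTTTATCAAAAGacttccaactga
Kif3a, 9 nt: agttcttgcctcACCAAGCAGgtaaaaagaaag
Immt, 15 nt: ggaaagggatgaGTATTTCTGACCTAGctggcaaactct
Abi1, 15 nt: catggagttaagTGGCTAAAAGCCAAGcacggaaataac
Dnm2, 12 nt: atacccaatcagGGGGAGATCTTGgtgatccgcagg
Dnm1l, 33 nt: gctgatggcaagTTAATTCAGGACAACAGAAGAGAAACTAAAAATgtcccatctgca
Numa1, 42 nt: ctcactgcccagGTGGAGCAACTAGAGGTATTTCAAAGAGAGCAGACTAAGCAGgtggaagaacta
All 10 exons have a length that is a multiple of 3 and lie within coding sequence. The first 4 and that of Numa1 were skipped more at day 12, and the other 5 were included more.

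Among the exons that were skipped more at day 12, that of *Mtf2* (chr5:108069166-108069363, 198 nt) moved furthest, with a PSI of 93.1 and 97.2 in NI and 23.4 and 17.1 in Empty cells (∆PSI −74.9, adjusted p = 0.000103), and its gene was also among the higher genes above. The 21 nt exon of *Pcnt* (pericentrin, a scaffold of the centrosome, exon 21 of 42 at chr10:76403624-76403644) was included in every read of NI cells and had a PSI of 100 and 100 in NI and 41.4 and 37.7 in Empty cells (∆PSI −60.5, adjusted p = 0.00118). The 21 nt exon of *Afdn* (afadin, which links nectins to actin at cell junctions, exon 16 of 34 at chr17:13848355-13848375) stood at 85.1 and 80.3 in NI and 23.4 and 29.6 in Empty cells (∆PSI −56.2, adjusted p = 1.03e-05). The exon of *Numa1* (chr7:102002295-102002336), a protein of the spindle poles, stood at 96.8 and 95.97 in NI and 42.7 and 43.4 in Empty cells (∆PSI −53.4, adjusted p = 1.67e-07). For each of these the libraries of a group lay close together and far from the other group. *Nfya*, a subunit of the CCAAT-binding factor NF-Y (81 nt, chr17:48398985-48399065), stood at 90.7 and 93.5 in NI and 39.01 and 43.5 in Empty cells (∆PSI −50.8, adjusted p = 5.15e-06). *Cit* (citron kinase) stood at 72.4 and 71.4 in NI and 17.8 and 16.7 in Empty cells. *Baz2b*, a bromodomain protein, stood at 98.5 and 100 in NI and 38.1 and 52.3 in Empty cells. *Pcnt* and *Baz2b* rested on 45 to 160 and 49 to 95 reads, and their calls were lost without an NI library (adjusted p of up to 0.0641 and 0.103).

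Among the exons that were included more, the 30 nt exon of *Upp1* (uridine phosphorylase, chr11:9118631-9118660) lies in the untranslated part of its transcript, with a PSI of 11.3 and 17.9 in NI and 83.6 and 83.8 in Empty cells (∆PSI 69.2, adjusted p = 0.000112). The NI values rested on 28 and 18 reads, against 5575 and 4386 in Empty cells. A 975 nt exon of *Nasp*, a chaperone of histone H1, stood at 16.8 and 17.3 in NI and 79.7 and 77.3 in Empty cells (∆PSI 61.5, adjusted p = 2.07e-07), with at least 970 reads in each library. *Wasf3*, an activator of actin branching of the WAVE family, held a pair of exons of nearly the same length that moved in opposite directions. The exon of 176 nt (chr5:146460965-146461140) stood at 7.46 and 1.9 in NI and 53.02 and 59.4 in Empty cells (∆PSI 51.5, adjusted p = 0.000294). That of 170 nt (chr5:146465850-146466019) stood at 96.04 and 99.1 in NI and 41.1 and 34.8 in Empty cells (∆PSI −59.6, adjusted p = 3.95e-05). In NI cells nearly all transcripts held the 170 nt exon and few the 176 nt exon, and in Empty cells both were at intermediate levels. *Dgkh*, a diacylglycerol kinase, went from 12.2 and 6.9 to 57.98 and 54.3 and *Pla2g6*, a phospholipase, from 42.2 and 39.1 to 85.04 and 85.8. Others rested on few reads at day 0. *Wiz*, a zinc finger partner of the G9a methyltransferase, went from 6.67 and 5.41 to 80 and 69.96, on as few as 16 reads. *Rragb*, a GTPase of the mTORC1 pathway, went from 10.5 and 6.9 to 75.9 and 64.6, on as few as 21. *Cracr2b*, a regulator of calcium channels, went from 15.4 and 58.6 to 93.8 and 97.01, on as few as 15. The calls on *Wiz*, *Rragb*, and *Cracr2b* were lost without single libraries (adjusted p of up to 0.0885, 0.085, and 0.108).

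Microexons of up to 27 nt, which in neurons are a known group of small coding exons, made up 41 of the differentially spliced events, 18 higher and 23 lower, which was 1.94% of the 2112 covered, against 0.679% of all covered events and 0.879% of cassette exons, with no test. Besides those of *Pcnt*, *Afdn*, and *Baz2b*, the 3 nt exon of *Clasp2*, a protein that stabilises microtubules, stood at 98.7 and 98.9 in NI and 55.2 and 62.04 in Empty cells (∆PSI −40.1, adjusted p = 0.000236). Other microexons were included more. The 9 nt exon of *Kif3a*, a motor of cilia, stood at 23.9 and 8.54 in NI and 53.4 and 41.7 in Empty cells. The 15 nt exon of *Immt*, a mitochondrial inner membrane protein that shapes cristae, stood at 56.8 and 59.5 in NI and 85.9 and 78.2 in Empty cells (∆PSI 23.9, adjusted p = 0.00684). The 15 nt exon of *Abi1*, a subunit of the WAVE complex, stood at 12.8 and 18.4 in NI and 37.8 and 38.6 in Empty cells (∆PSI 22.6, adjusted p = 0.00927). The 12 nt exon of *Dnm2*, a dynamin of endocytosis, stood at 42.1 and 36.5 in NI and 59.95 and 62.8 in Empty cells. The libraries of the groups did not overlap for these exons, but the calls on *Kif3a*, *Immt*, *Abi1*, and *Dnm2* were lost without single libraries, with adjusted p of up to 0.234, 0.142, 0.203, and 0.293.

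Genes known for exons that switch with cell state held further changes. Of 82 such genes, 53 had differentially spliced events, 106 in all and 53 in each direction, which was 1.68% of their 6318 covered events against 0.679% of all covered events. The list was put together with results of these data known, so that the share is a description. The 63 nt exon of *Plod2*, a lysyl hydroxylase whose long form acts on the ends of collagen (chr9:92601985-92602047), stood at 95.1 and 97.5 in NI and 42.1 and 49.9 in Empty cells (∆PSI −50.3, adjusted p = 3.65e-07). *Itga6*, the laminin receptor integrin α6, whose 130 nt exon sets the sequence of the cytoplasmic tail, stood at 79.9 and 84.7 in NI and 34.5 and 37.9 in Empty cells (∆PSI −46.1, adjusted p = 3.61e-05). Both exons were in most NI transcripts and in fewer than 1 in 2 Empty transcripts. *Dnm1l* (DRP1, which divides mitochondria) included its 33 nt exon more, at 14.7 and 10.4 in NI and 60.3 and 45.7 in Empty cells (∆PSI 40.4, adjusted p = 0.000113). *Sec31a*, a coat protein of the secretory pathway, stood at 18.2 and 12.8 in NI and 56.5 and 50.2 in Empty cells. *Ect2*, an exchange factor that acts in cytokinesis, stood at 47.8 and 51.8 in NI and 82.03 and 84.7 in Empty cells (∆PSI 33.6, adjusted p = 0.000526). The polarity kinases *Mark2* and *Mark3* moved in opposite directions. *Mark2* went from 21.5 and 26.6 to 68.5 and 57.4 (∆PSI 38.9, adjusted p = 0.00114). *Mark3* went from 88.5 and 90.8 to 53.7 and 60.5 (∆PSI −32.6, adjusted p = 0.000102). With single libraries left out, the calls on *Plod2*, *Itga6*, *Dnm1l*, *Sec31a*, *Ect2*, and *Mark3* held, and that on *Mark2* was lost without NI replicate 1.

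For the exons that the study assayed, those of *Pcnt*, *Afdn*, and *Plod2* are among the exons described. *Numb*, an inhibitor of Notch, included its 147 nt exon more, at 13.6 and 7.96 in NI and 30.7 and 23.1 in Empty cells, which met the ∆PSI rule but not the read test (adjusted p = 0.065). Its 33 nt exon stood at 44.97 and 38.2 in NI and 51.9 and 48.1 in Empty cells and met neither. The assayed exon of *Dnmt3b* was not matched to an event by its number and is not described. *Lef1* and *Grhl1* could not be compared. None of the 10 annotated cassette exons of *Lef1* and none of the 15 of *Grhl1* was covered in both NI libraries, whereas all of them were in both Empty libraries, and *Grhl1* had a junction level of 0.375 and 0.213 in NI and 7.02 and 5.9 in Empty cells.

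Some transcripts of splicing regulators were themselves spliced differently. Of the 86 regulators with covered events, 21 had differentially spliced events, 42 in all (22 higher and 20 lower), which was 1.29% of their 3265 covered events against 0.679% of all covered events, and 14 of the 42 passed the read test. The largest was a long exon of *Rbmx* (1253 nt), at 56.3 and 56.1 in NI and 17.7 and 18.4 in Empty cells (∆PSI −38.1, adjusted p = 0.00032), in a gene whose level also fell. A 73 nt exon of *Hnrnpa2b1* stood at 12.9 and 21.4 in NI and 50.6 and 43.6 in Empty cells (∆PSI 29.95, adjusted p = 0.00125). *Tia1* and its paralogue *Tial1*, whose proteins bind U-rich sequence next to 5′ splice sites, both included an exon more. That of *Tia1* (66 nt) stood at 16.2 and 23.1 in NI and 54.05 and 40.1 in Empty cells (∆PSI 27.4, adjusted p = 0.0311). That of *Tial1* (69 nt) stood at 12.4 and 14.5 in NI and 44.2 and 28.01 in Empty cells (∆PSI 22.6, adjusted p = 0.0231). *Clk1* and *Clk4*, kinases of SR proteins, can skip an exon to make an inactive form. *Clk1* stood at 77.1 and 51.5 in NI and 29.8 and 41.9 in Empty cells, and *Clk4* at 60.5 and 40 in NI and 18.8 and 28.8 in Empty cells (∆PSI −26.5, adjusted p = 0.0314). A 223 nt exon of *Mbnl1* went from 63.3 and 46.1 to 34.4 and 26.2 and one of *Tra2a* from 7.93 and 9.79 to 36.4 and 20.7. *Clk1* did not pass the read test (adjusted p = 0.0684). Of the exons in this list that did, that of *Rbmx* kept its call without any single library. Those of *Hnrnpa2b1*, *Tia1*, *Tial1*, *Clk4*, *Mbnl1*, and *Tra2a* lost theirs in some of the alternatives, which here leave out *limma* on PSI.

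**Figure D3:**
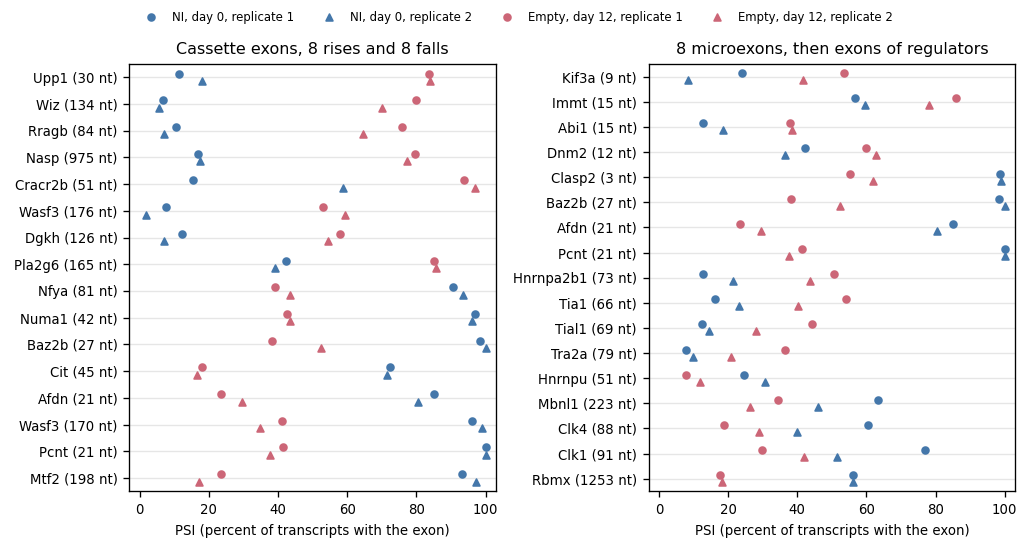
PSI in percent, 1 point per library, of the 16 cassette exons with the largest changes (left) and of 8 microexons and 9 exons of splicing regulators (right), 2 NI and 2 Empty libraries each. The NI libraries of *Pcnt* lie at 100 and the Empty libraries at 41.4 and 37.7, and in *Clk1* the libraries of each group are further apart, at 77.1 and 51.5 against 29.8 and 41.9.

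Retained introns changed in both directions, 391 higher and 379 lower. The largest rise was in *Klhl13*, an adaptor of the CUL3 ubiquitin ligase, where an annotated intron of 3371 nt went from 4.76 and 2.97 to 81.7 and 78.5 (∆PSI 76.2, adjusted p = 0.000226), on only 11 reads in NI replicate 1. *Myl4*, a light chain of atrial myosin, went from 0.68 and 0 to 58.3 and 56.1 (∆PSI 56.8, adjusted p = 0.00143). *Alms1*, a protein of basal bodies, went from 22.7 and 21.7 to 62.6 and 66.4. *Cdk5rap1*, an enzyme that modifies mitochondrial tRNA, went from 6.49 and 0 to 50.7 and 40.1. These 4 calls were lost without single libraries (adjusted p of up to 0.0882, 0.112, 0.287, and 0.127). None of the 4 falls named next lost its call without a single library. An intron of *Platr16*, a noncoding RNA of pluripotent cells, went from 81.5 and 74.3 to 12.6 and 12.8 (∆PSI −65.2, adjusted p = 5.84e-07), with at least 263 reads in each library. *Lima1*, an actin-binding protein (6833 nt), went from 98.4 and 94.4 to 42.1 and 49.6 (∆PSI −50.5, adjusted p = 3.60e-06). These introns were in most NI transcripts. The 88 nt intron of *Cfp* (properdin of the complement system) went from 87.8 and 94.9 to 31.5 and 22.5 (∆PSI −64.3, adjusted p = 0.000331). The 136 nt intron of *Cd68*, a lysosomal protein of macrophages, went from 75.9 and 73.1 to 20.5 and 11.8 (∆PSI −58.4, adjusted p = 0.000139). *Cd68* was also a higher gene, with a junction level of 1.97 and 1.16 in NI and 14.7 and 17.1 in Empty cells. Introns that were retained less had a median length of 629 nt and those retained more one of 978 nt, against 1282 nt over all covered introns, with no test.

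Among the differentially spliced sites, few passed the read test (30 at 3′ sites and 41 at 5′ sites). At 3′ sites, *Mpp5* (PALS1, a polarity protein of epithelia) used one of a pair of sites, 237 nt from the other, at 62.9 and 58.2 in NI and 94.1 and 94.1 in Empty cells (∆PSI 33.5, adjusted p = 0.000885). For *Gpc2*, a glypican of the nervous system, use of the site 83 nt into the exon went from 58.9 and 55.6 to 27.5 and 29.6. *Depdc5*, part of the GATOR1 brake on mTORC1, used one of its sites at 0 and 0 in NI and 29.5 and 26.8 in Empty cells. At 5′ sites, *Stk11* (LKB1, the kinase upstream of AMPK and of the MARK kinases) used one of a pair of sites 4 nt apart at 42.9 and 39.1 in NI and 75.3 and 81.7 in Empty cells (∆PSI 37.5, adjusted p = 0.0142). *Stk10*, a kinase that phosphorylates ERM proteins, used one of its sites at 100 and 100 in NI and 44.2 and 67.2 in Empty cells (∆PSI −44.3, adjusted p = 0.0124). *Eif3e*, a translation initiation subunit, used its first annotated site at 32.3 and 38.7 in NI and 91.4 and 88.99 in Empty cells, on 16 and 18 reads in NI cells. All of these but that of *Mpp5* lost their call without single libraries, with adjusted p of up to 0.207 for *Gpc2*, 0.334 for *Depdc5*, 0.22 for *Stk11*, 0.239 for *Stk10*, and 0.0641 for *Eif3e*.

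Cassette exons were also described by their length. A length that is a multiple of 3 was found in 53.4% of the 506 exons included more and 49.4% of the 476 included less, against 43.0% of 5644 exons with a mean PSI of 5 to 95 that were not differentially spliced. Microexons made up 3.56% and 4.83% of the former and 2.57% of the latter. These shares are given with no test, since exons of a gene are not independent. Exons included more had a median PSI of 34.0 in NI and 57.8 in Empty cells, and exons included less one of 83.4 in NI and 61.4 in Empty cells.

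The knockdown dataset holds its own NI libraries at day 0 and its own control at day 12, cells with a scrambled shRNA (shSCR), and shares no library with the comparison above. Both controls passed through infection, GFP sorting, and feeders, with a different virus. Of the 4401 called genes, 4188 were listed in its table, and 3997 of these (95.4%) had the same direction from NI to shSCR, against 67.8% of the 4853 genes that gave no call. Of the differentially spliced events, 2009 of 2349 covered there (85.5%) had the same sign of ∆PSI, with 89.5% of cassette exons and 85.7% of introns, against 63.3% of 27609 events with a mean PSI of 5 to 95 that were not differentially spliced. The ∆PSI there was −73.9 for the exon of *Pcnt*, −59.9 for *Afdn*, −48.3 for *Plod2*, 59.04 for *Nasp*, and 56.4 for *Dnm1l*. Of 62 named events covered there, with sites counted singly, 60 had the same sign. The 33 nt exon of *Numb* (−2.78, against 8.4 here) and an exon of *Hnrnpu* (2.74, against −17.7) had the opposite one. Of the 60, 24 had a larger ∆PSI there and 10 one under 50% of that here. The latter included the introns of *Cdk5rap1* (0.215, against 42.2) and *Myl4* (22.7, against 56.8), the exon of *Clk4* (−9.25, against −26.5), and the sites of *Mpp5* (14.9, against 33.5) and *Stk11* (17.7, against 37.5). *Nfya* (−25.8, against −50.8) and *Eif3e* (29.2, against 54.7) were just over that limit. Tables were scaled separately, so that levels are not compared across them, and the differences between the datasets were not tested.

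**Figure D4:**
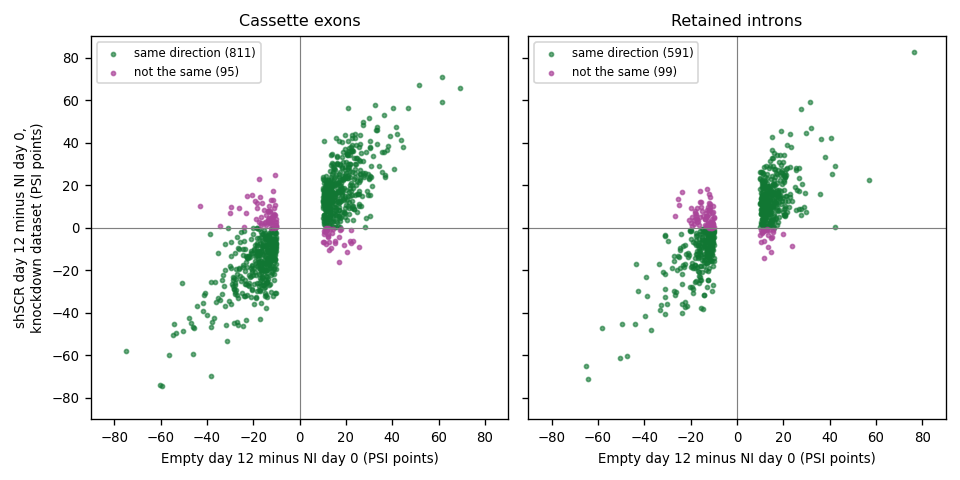
∆PSI in the knockdown dataset (shSCR minus NI, vertical axis, PSI points) against ∆PSI in the overexpression dataset (Empty minus NI, horizontal axis) for differentially spliced cassette exons and retained introns covered in both, 1 point per event. Of the exons, 811 of 906 lie in the quadrants of equal sign, and of the introns 591 of 690.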

How the data were processed

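RNA of 2 NI libraries (day 0) and 2 Empty libraries (day 12) was compared. Per the study's methods, the authors aligned paired, stranded reads to mm10 with STAR 2.7.1a and scaled counts per gene with edgeR 3.16.5. The deposited signal is CPM multiplied by a factor for each library, kept for genes past a minimum. The authors deposited PSI in percent from vast-tools, with read numbers per event. One field of the labels conflicts with the titles on the day of NI cells, and the titles were used.

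For differences in expression, *limma* 3.58.1 (R 4.3.3, moderated test with a trend) was fitted to the log2 of scaled CPM after 1 had been added, with the T7-TIA1 libraries of the same dataset sharing the estimate of the spread (6 libraries, 3 residual degrees of freedom) and Benjamini-Hochberg adjustment over all features, called at 0.05. Fold changes on this scale understate low genes. Junction reads per gene (mean of at least 20) were tested as log2(level + 0.1), a readout added after the data were seen. Events were tested as log2 of inclusion over exclusion reads, with 1 read added to each, a variance floor of 0.1, and at least 10 of each over the 6 libraries. Python 3.11.15, pandas 2.3.3, and NumPy 2.4.6 prepared the tables, and the procedure was tested on simulated data. All simulated libraries had the same spread, so that this did not cover the wider spread of the NI libraries. Reads are not independent molecules, so floors cover counting error only. Of the 9472 genes, 125 had no symbol, and 117 of these were named from the reference.

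Named genes were the 12 largest rises and 12 largest falls among called genes with groups that do not overlap and a mean of at least 20 scaled CPM in the higher group (for genes outside the table, by junction level), the core members and the 3 members with the smallest adjusted p of each list, the most expressed marker, and *Cpsf3*, *Hnrnpul1*, and *Tia1*. Named events were the largest rises and falls past the ∆PSI rule and the read test, 8 each way for cassette exons and 4 each way for introns, sites, and microexons, the 12 largest events of the splicing lists, and the exons that the study assayed. Further genes named in the text were chosen after their values were seen. Members and lists were chosen with earlier results of these data known. Columns of the other libraries and the knockdown table were used only where stated. Results on some genes that meet these rules are not reported here.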

Additional observations from a re-analysis of the deposited data

Results flagged for a closer look

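Expression of *Myc*, one of the induced factors, went in opposite directions in the datasets. From NI to Empty cells it stood at 143 and 91.7, then 200.3 and 194 scaled CPM, a log2 fold change of 0.778, whereas from NI to shSCR cells of the knockdown dataset it stood at 199.58 and 160.43, then 94.1 and 94.9, a log2 fold change of −0.914. *Ccnd1* (cyclin D1) stood at 181 and 167, then 455 and 584 from NI to Empty cells (1.56), and at 227 and 229.5, then 86.9 and 193 from NI to shSCR cells (−0.812). For both genes, each library at day 12 lay above both NI libraries in the first comparison and below both in the second. The difference between the datasets was not tested, and tables were scaled separately.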

How the results depend on the processing

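The counts are those of *limma* at an adjusted p of 0.05 unless stated. At 0.01 there were 2249 called genes in the table and 4246 by junction reads, against 4401 and 6907. With only the 4 compared libraries in the fit, and so without the spread of the T7-TIA1 libraries, there were 3078 called genes in the table and 5454 by junction reads. The calls on *Col1a2* (adjusted p = 0.0636), *Thy1* (0.06), *Zeb1* (0.0658), *Ldha* (0.0636), *Myc* (0.0637), and *Cpsf3* (0.0806), and those on the exons of *Dnm2* (0.0568) and *Mbnl1* (0.0641), were lost there. The read test on events called 1249 in the main setting, 815 where at least 50 reads of each kind were asked for, and 7 with *limma* on PSI, which had 11630 events at an unadjusted p under 0.05. The ∆PSI rule gave 2611 events, 1314 at a minimum of 15, and 658 at a minimum of 20. With single libraries left out, called genes ranged from 1473 to 5978 in the table and from 3605 to 8781 by junction reads, events by reads from 215 to 1830, and events by the ∆PSI rule from 3591 to 5429. A fit that leaves out a library treats the lone library of its group as varying like the others. The replicate numbers are not stated to pair the libraries. Deviations of libraries with equal numbers had a correlation of 0.171 across genes and 0.0237 across events for NI and Empty. It was 0.308 and 0.0414 for NI and T7-TIA1, and 0.186 and 0.123 for Empty and T7-TIA1. With the replicate block, 4392 genes (4147 of them among the 4401), 6884 genes by junction reads, and 3012 events by reads were called. The planned edgeR test on reads recovered from the values was not run, since the listed genes hold no low values from which the worth of 1 read could be checked.

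With libraries set to equal sums, the log2 fold change turned positive for *Wwtr1* (0.15), *Plk1* (0.012), *Ndufs1* (0.13), *Tia1* (0.099), *Hnrnpul1* (0.051), and, by junction reads, *Ndufb2* (0.11). None of these was called. With single libraries left out, the log2 fold change of these genes changed sign, none of them called in the main setting: *Col3a1* from −1.86 to 0.60, *Fn1* from −1.06 to 0.22, *Tgfbr2* from −0.045 to 1.05, *Plk1* from −0.43 to 0.086, *Cdkn1a* from −0.13 to 0.40, *Ndufs1* from −0.17 to 0.050, *Tia1* from −0.34 to 0.17, *Igf2* from −0.27 to 0.59, and *Sqle* from −1.18 to 0.022 in the table, and *Col14a1* from −1.86 to 1.21, *Eln* from −1.15 to 3.66, *Fen1* from −0.82 to 0.062, *Ndufb2* from −0.063 to 0.051, *Isg15* from −1.86 to 1.39, and *Fdps* from −1.50 to 0.14 by junction reads. In these the cause was not tested. Over the alternatives of the named genes and events, 1449 values in the table kept their side of the threshold and direction, 68 lost the call, and 30 gained one. By junction reads these counts were 799, 21, and 9, and for events by reads 484, 109, and 8. The counts for events leave out *limma* on PSI, which called 7 events in all. Values of genes silent at day 0 rest on a few reads at most, and events with under 50 reads have a coarse PSI.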
